A study of Mus musculus with 4 samples.

Results

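The 55 collagen and laminin genes of the mouse were examined for histone H3 acetylation. They were every protein-coding RefSeq gene on chromosomes 1 to 19, X and Y whose symbol is Col, a number, a and a number, or Lam, a letter from a to c and a number. They made up 44 collagen and 11 laminin genes of 21887 protein-coding genes. Each gene was read over its annotated span plus 1 kb on either side, called its window here.

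Collagen chains assemble in threes into a triple helix and form the fibrils, nets and filaments of the extracellular matrix. Laminins are cross-shaped trimers of an alpha, a beta and a gamma chain, and together with the type IV collagen net they make the basement membrane. Fibroblasts, endothelial and epithelial cells are the usual producers of both, and myeloid cells are better known for binding and degrading matrix than for making it. Acetylation of histone H3 at lysine 9 (H3K9ac) marks active promoters and some enhancers, and histone deacetylases remove it.

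The cells were myeloid-derived suppressor cells (MDSC) grown from mouse bone marrow and made senescent in vitro, per the labels and the design text. Both conditions carried the label CM, which the labels do not expand: 1 condition was CM alone and the other was CM plus romidepsin, an inhibitor of histone deacetylases. Each condition had 1 library precipitated with an antibody to acetylated H3K9, sequenced by ChIP-seq, and 1 input library that was not analysed here. The sources used here give no strain, age, dose or time of treatment. The cells are a bulk culture, so fewer cells carrying a mark and less mark per cell cannot be told apart.

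With 1 library per condition there is no replicate error and no test. Counts and values below describe these 2 libraries, and the 95% intervals are exact Clopper-Pearson intervals that cover counting error only. The CM list held 16419 peaks and the romidepsin list 103336, and read depth is unknown. The fold of a peak is the enrichment given by the authors' peak caller and is compared only within its own list. All 12 myeloid marker genes examined, among them Spi1, Lyz2 and Itgam, had a peak in both lists. For comparison with this and the marker counts that follow, 53.6% of all protein-coding genes had a CM peak and 68.3% a romidepsin peak. Of 12 fibroblast and stromal markers 1 had a CM peak (Acta2, 1 peak) and 9 a romidepsin peak. Of 10 endothelial markers 3 had a CM peak (Vwf, Kdr and Pecam1) and 6 a romidepsin peak. Of 6 epithelial markers 2 had a CM peak (Epcam and Cdh1) and 4 a romidepsin peak. The part of such cells in the peaks described below was not tested.

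Collagen and laminin genes were largely without H3K9ac peaks in the CM library. A CM peak lay in the window of 5 of the 55 genes, or 9.09% (95% interval 3.02 to 19.95%), against 53.6% of all protein-coding genes. The 5 were the collagens Col15a1, Col23a1 and Col27a1 and the laminins Lamb2 and Lamc1. Collagens counted 3 of 44 and laminins 2 of 11.

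In the romidepsin library 26 of the 55 genes had a peak, or 47.3% (95% interval 33.7 to 61.2%), against 68.3% of all protein-coding genes. The 26 were 20 of 44 collagens and 6 of 11 laminins. All 5 genes with a CM peak were among them, so 21 genes had a romidepsin peak and no CM peak, or 38.2% (95% interval 25.4 to 52.3%), against 14.8% of all genes. Among genes without a CM peak, 21 of 50 collagen and laminin genes had a romidepsin peak, or 42% (95% interval 28.2 to 56.8%), and 31.8% of all such genes did, a share inside that interval. The remaining 29 of the 55 genes had no peak in either list.

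These counts depend on how many romidepsin peaks are kept. With the romidepsin list shortened to its 16419 strongest peaks, 9 of the 55 genes had a peak, against 54.5% of all genes, and 4 of 50 genes without a CM peak had one (8%), against 8.44% of all such genes. With a −log10 q of at least 5 in both lists, 4 of 52 genes without a CM peak had a romidepsin peak (7.69%), below the 27.3% of all such genes.

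Collagen and laminin genes are long. Their median span was 114 kb, against 17.2 kb for all protein-coding genes. Within span classes the CM share stayed below that of all genes. Of genes under 30 kb, 1 of 10 had a CM peak (all genes, 48.1%) and 6 of 10 a romidepsin peak (62.3%). Between 30 and 100 kb, 0 of 14 had a CM peak (67.4%; the interval reaches 23.2%) and 5 of 14 a romidepsin peak (82.2%). Between 100 and 200 kb, 3 of 21 had a CM peak (65.1%) and 9 of 21 a romidepsin peak (80.1%). At 200 kb or more, 1 of 10 had a CM peak (45.8%) and 6 of 10 a romidepsin peak (67.7%). Among genes without a CM peak, a romidepsin peak was found, from the shortest to the longest class, in 5 of 9 (all such genes, 27.4%), 5 of 14 (45.3%), 6 of 18 (43%) and 5 of 9 (40.6%). The romidepsin share lay farthest below the other genes in the classes from 30 to 200 kb, and in the shortest and the longest class the interval held the share of all genes.

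**Figure D1:**
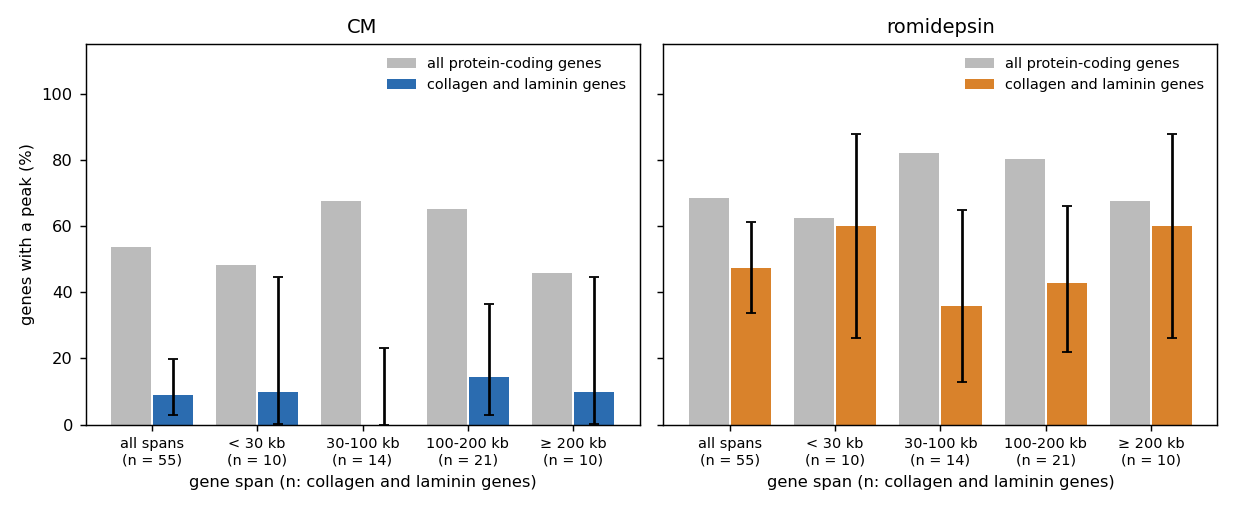
Share of genes with an H3K9ac peak in the gene window (y axis, %) by gene span (x axis), for CM (left) and romidepsin (right). Grey bars are all protein-coding genes, coloured bars the collagen and laminin genes with exact 95% intervals for counting error. The coloured CM bars lie between 0 and 14.3%, below the grey bars in every span class.

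Peaks were also sparse along these genes. Romidepsin peaks covered 2.46% of the summed windows (7.12 Mb), against 14.0% over all gene windows. Pairings of a romidepsin peak with a gene numbered 1.74 per 100 kb against 7.003, and a peak in several windows counts in each. CM peaks covered 0.0827%, against 2.16%. None of these values was matched for gene span. The peaks themselves were of ordinary strength for their list. The 123 romidepsin peaks had folds from 2.17 to 4.52 with a median of 2.69, against 2.65 over all gene windows, and a median length of 1102 bp against 1020 bp. Peaks of at least 4 kb made up 11 of the 123, or 8.94%, against 15.1%. The 7 CM peaks had folds from 3.92 to 7.38 with a median of 5.12, against 5.28, and were shorter, with a median of 587 bp against 1237 bp. Each of the 7 lay wholly inside a romidepsin peak, as did 98.0% of CM peaks over all gene windows.

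The romidepsin peaks were unevenly spread. Of the 26 genes with a peak, 8 had a single one and 9 had 5 or more (16.4% of 55 genes, against 23.1% of all genes). Those 9 held 93 of the 124 pairings of a peak with a gene. Among genes without a CM peak, 5 of 50 had 5 or more romidepsin peaks, or 10% (95% interval 3.33 to 21.8%), against 4.94% of all such genes, a share inside that interval: Col4a2 with 24, Col4a1 with 13, Col11a2 with 7, and Col5a1 and Col8a2 with 6 each. By span these were 2 of 9 genes under 30 kb (all such genes, 2.57%), 0 of 14 from 30 to 100 kb (10.5%), 3 of 18 from 100 to 200 kb (13.3%) and 0 of 9 at 200 kb or more (13%). By place, 96 of the 124 pairings were inside the gene, 14 within 1 kb of the start site, 9 in the window of the 3′ end, and 5 at an end of a gene whose strand the table does not give. Places were not counted over all genes, and longer genes leave more room inside. For the 15 genes without a start site in the table no peak could be placed at one. The adjacent pair Col4a1 and Col4a2 alone held 36 peaks, 29.3% of the 123.

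**Figure D2:**
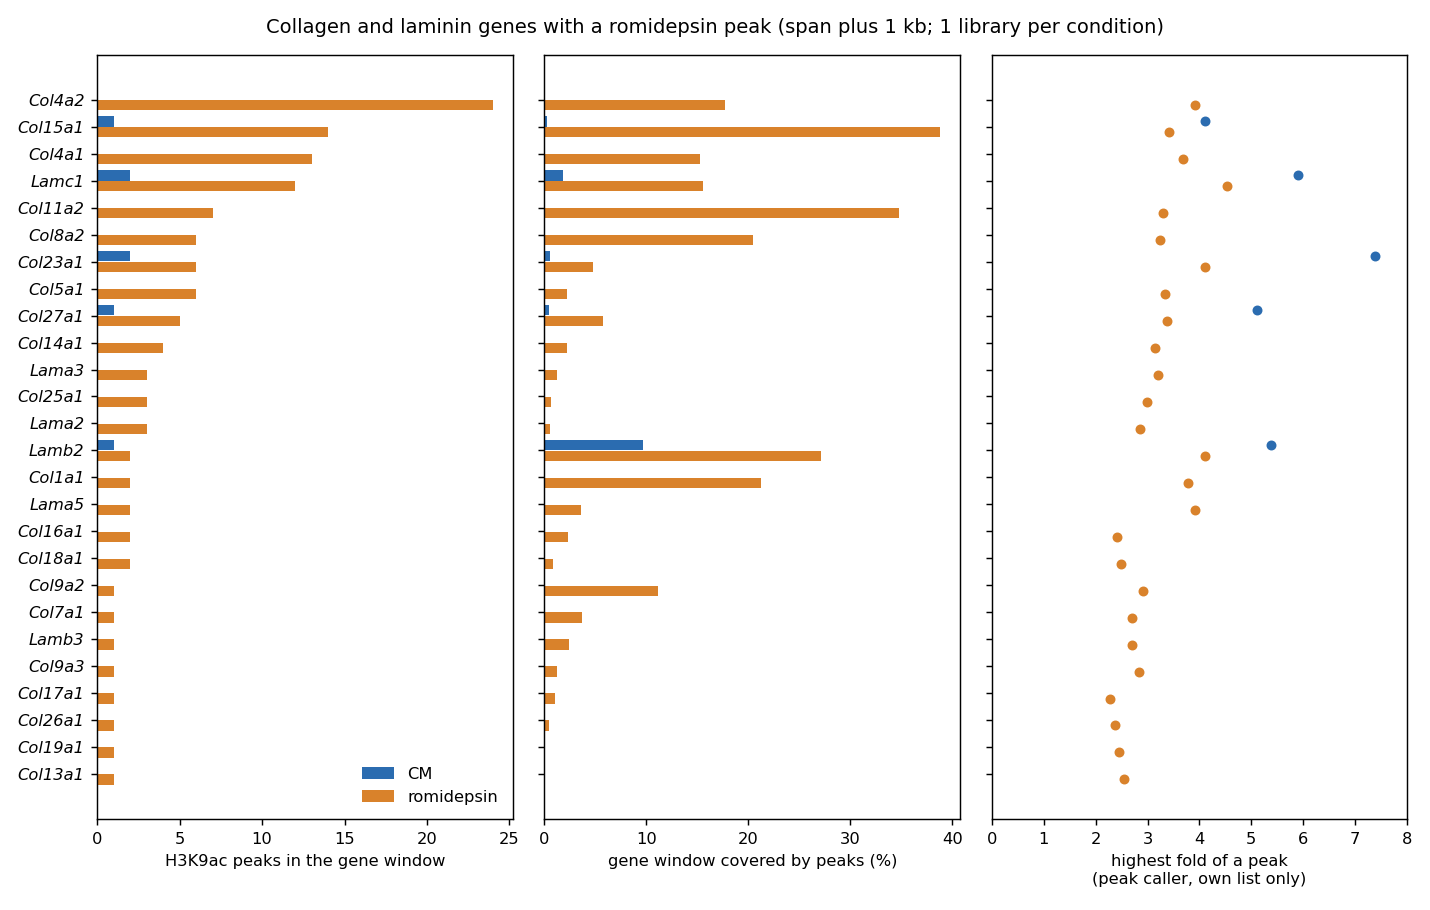
The 26 collagen and laminin genes with a romidepsin peak (rows), with the number of H3K9ac peaks in the gene window (left), the share of the window covered (middle, %) and the highest fold of a peak (right). Blue is CM and orange romidepsin, 1 library each. Col4a2 leads by number with 24 peaks and Col15a1 by covered share with 38.8%, and blue marks appear at 5 genes.

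Type IV collagens form the net of basement membranes, and their 6 genes stand as 3 facing pairs. The Col4a1 and Col4a2 chains build the net found in most tissues, whereas Col4a3, Col4a4, Col4a5 and Col4a6 have a narrower expression. Only the Col4a1 and Col4a2 pair on chromosome 8 had peaks in its windows, all of them in the romidepsin list. The start sites of Col4a1 (minus strand, 11312826) and Col4a2 (plus strand, 11312805) overlap by 21 bp, and 1 romidepsin peak of 1271 bp covered both (chr8:11312158-11313428, fold 2.92, −log10 q 3.01). That peak was not the strongest of the pair. Inside Col4a2, peaks at chr8:11339552-11341832 (fold 3.92, −log10 q 6.40) and chr8:11392281-11394173 (fold 3.64) were stronger, at 26747 and 79476 bp from its start site, and no peak began between 26747 and 77953 bp. Inside Col4a1 the strongest was chr8:11248572-11251655 (fold 3.67, −log10 q 5.55), 61171 bp from its start site. Peaks covered 15.2% of the Col4a1 window and 17.7% of the Col4a2 window. The longest, 4908 bp (chr8:11449902-11454809, fold 3.78), lies beyond the 3′ end of Col4a2 and also reaches the window of Rab20, a small GTPase gene. Without it and 1 peak beyond the 3′ end of Col4a1, 34 peaks touched the spans of the pair, which together run over 251 kb. The nearest CM peak was 2.69 kb beyond Col4a2, and 5 kb of flank in place of 1 kb would count it. The 4908 bp romidepsin peak overlapped this CM peak, so that stretch also had a peak in CM, outside the window.

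The 2 other pairs had no peak in either list. Col4a6 and Col4a5 on chromosome X have start sites 1343 bp apart and together span 524 kb, and the nearest romidepsin peak was 168 kb from Col4a6 and 478 kb from Col4a5. Col4a4 and Col4a3 on chromosome 1 overlap by 114 bp and span 274 kb. Col4a3 has no start site in the table used, so their pairing rests on their facing ends. A romidepsin peak lay 2.30 kb from Col4a3, outside the window. Over all 1096 pairs of protein-coding genes with opposite start sites within 5 kb, 90.9% had a CM peak and 94.7% a romidepsin peak over the start sites. Only 2 collagen pairs met this definition, Col4a1 with Col4a2 and Col4a6 with Col4a5, and neither had a CM peak there. The pair Col4a1 and Col4a2 had a romidepsin peak there, as most such pairs did, and Col4a6 and Col4a5 had none.

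**Figure D3:**
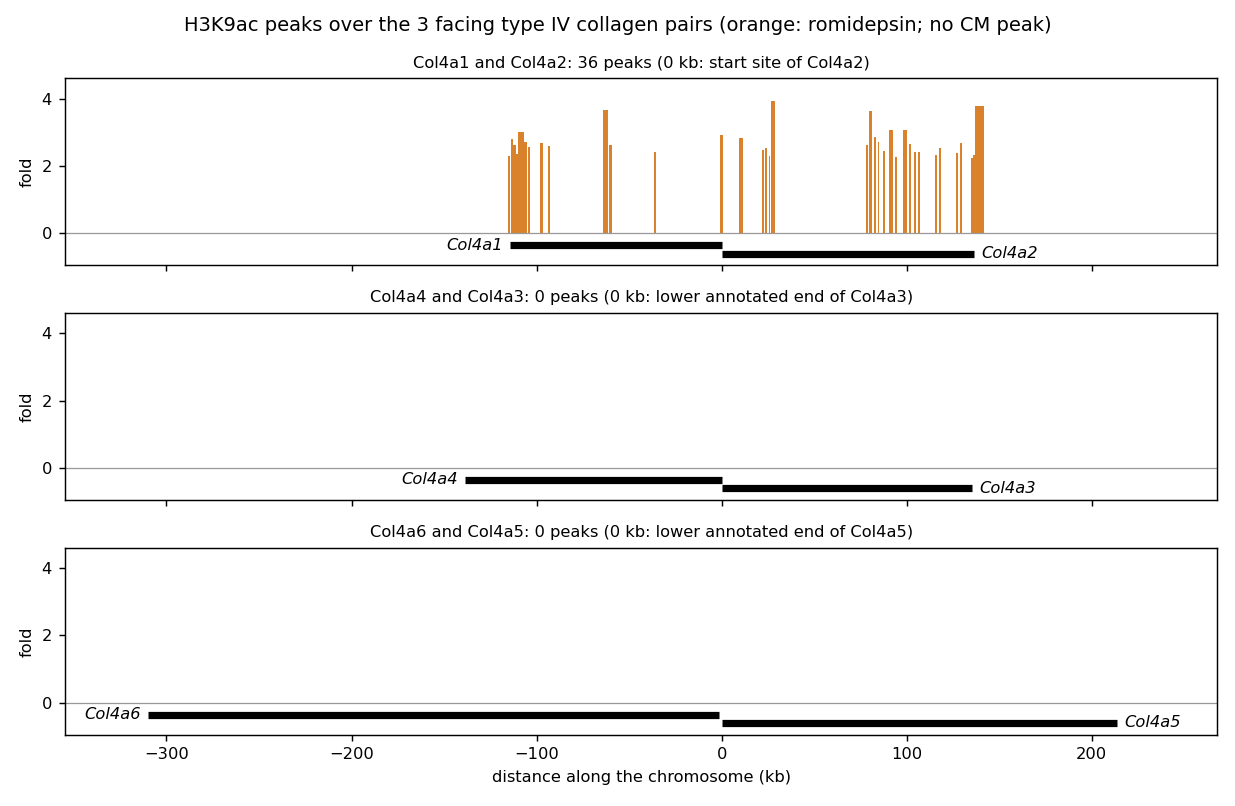
H3K9ac peaks over the 3 facing pairs of type IV collagen genes. The x axis is the distance along the chromosome from the facing end (kb), the y axis the fold of each peak, and black bars are the genes. Orange romidepsin peaks spread over Col4a1 and Col4a2, with 36 peaks, and the other pairs have 0.

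Short stretches around the shared start of Col4a1 and Col4a2 are shown because 1 peak covers both start sites there. The 300-base promoter windows of the 2 genes overlap and were rich in CpG, with an observed over expected CpG ratio of 0.90 for Col4a1 and 0.82 for Col4a2. Capitals mark a CCAAT box (CCAAT) or a GC box (GGGCGG), each searched on both strands, and the bases are given on the plus strand of GRCm38.p6, from RefSeq.
GC box, chr8:11312745-11312774: gacctgagcgcgCCGCCCgaggagctcccc
CCAAT box, chr8:11312761-11312790: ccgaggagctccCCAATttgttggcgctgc
GC box, chr8:11312800-11312829: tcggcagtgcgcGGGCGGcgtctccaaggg
The CCAAT box begins 32 bp before the start site of Col4a2, and the GC box before it is read on the minus strand. These motifs do not overlap each other. Another GC box of the Col4a2 window, at chr8:11312613-11312618, is not printed. A CCAAT box was found in 38.2% and a GC box in 46.2% of 21263 promoter windows of all genes, so both motifs are common.

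Fibrillar collagens make the banded fibrils of skin, bone and cartilage. Of their 11 genes, 1 had a CM peak (Col27a1) and 4 a romidepsin peak, with 20 romidepsin peaks between them. Beside this and the class counts below, the shares of all protein-coding genes were 53.6% for CM and 68.3% for romidepsin. Col11a2, a chain of the cartilage collagen XI, had 7 romidepsin peaks over 34.8% of its window, with the strongest at its 3′ end (chr17:34066340-34070621, fold 3.30). Its start peak (chr17:34037145-34040266, 3122 bp, fold 2.84) also reached the window of the neighbouring Rxrb, which encodes a retinoid receptor. Col1a1, the main chain of bone and skin collagen, had 2 romidepsin peaks over 21.2% of its window. The stronger lay near its lower annotated end (chr11:94936719-94939830, 3112 bp, fold 3.79, −log10 q 5.67) and the other inside the gene had a fold of 2.71. Col1a2, its partner chain, had none, and the nearest romidepsin peak was 4.27 kb away. Col5a1, which controls fibril diameter, had 6 romidepsin peaks over 2.25% of its window, the strongest at its start site (chr2:27886174-27887655, 1482 bp, fold 3.34). The other 7 fibrillar genes, Col1a2, Col2a1, Col3a1, Col5a2, Col5a3, Col11a1 and Col24a1, had no peak in either list. Col3a1 and Col5a2 are neighbours on chromosome 1, 24.6 kb apart, and lay 445 kb and 291 kb from the nearest romidepsin peak.

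Type VI collagens form beaded microfilaments, and none of their 6 genes had a peak in either list. Col6a1 and Col6a2 are 85.2 kb apart on chromosome 10, Col6a4, Col6a5 and Col6a6 form a row on chromosome 9, and Col6a3 lies on chromosome 1. The nearest romidepsin peak was between 33.0 kb (Col6a6) and 185 kb (Col6a5) away.

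Fibril-associated collagens bind the surface of fibrils. Of 9 genes 0 had a CM peak and 5 had a romidepsin peak, with 9 romidepsin peaks in all. Col14a1 had 4, led by one at its lower annotated end (chr15:55306159-55308531, 2373 bp, fold 3.14). Col9a2, a chain of cartilage collagen IX, had 1 of 1984 bp over its start site (fold 2.91) that covered 11.2% of its window. Col16a1 had 2 inside the gene, with a highest fold of 2.42, and Col19a1 had 1 inside the gene with a fold of 2.46. The single peak of Col9a3 (313 bp, fold 2.83) lay wholly outside the annotated gene. Col9a1, Col12a1, Col20a1 and Col22a1 had no peak. Col22a1, at 655.5 kb, was the farthest of all 55 genes from a romidepsin peak.

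Short-chain and anchoring collagens counted 4 genes, with 0 CM peaks and 2 genes with a romidepsin peak. Col8a2, a chain of the hexagonal net of the corneal Descemet membrane, had 6 romidepsin peaks over 20.5% of its window. They ran from the start site (chr4:126286116-126287368, 1253 bp, fold 3.03) into the gene, where the strongest had a fold of 3.25. Col7a1, of the anchoring fibrils of skin, had 1 of 1239 bp inside the gene (fold 2.71). Col8a1, which pairs with Col8a2, and Col10a1, of hypertrophic cartilage, had none.

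Transmembrane collagens, which span the cell membrane once, had a romidepsin peak in all 4 genes. Of all protein-coding genes 68.3% had one, and 67.7 to 82.2% of those in the span classes of these 4. Col23a1 had 2 CM peaks and 6 romidepsin peaks. The CM peak at its start site was weak (chr11:51289734-51290165, 432 bp, fold 3.93, −log10 q 2.08). The one at its 3′ end was the strongest CM peak of all 55 genes (chr11:51583656-51585836, 2181 bp, fold 7.38, −log10 q 8.56). It also reached the window of the neighbouring Phykpl, a metabolic enzyme gene. Both CM peaks lay inside romidepsin peaks, of 2255 bp (fold 3.76) and 9812 bp (fold 4.11). Col25a1 had 3 romidepsin peaks over 0.681% of its window, the strongest 219597 bp from the start site (fold 2.98). Col17a1, of the hemidesmosomes of skin, had 1 inside the gene (fold 2.29, −log10 q 1.35). For Col13a1 a single peak (fold 2.54) lay outside the gene, 994 bp from the start site, with 105 bp in the window.

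Multiplexins are basement membrane collagens whose C-terminal ends release small fragments, such as endostatin from collagen XVIII. Col15a1 had 14 romidepsin peaks over 38.8% of its window, the largest share of the 55 genes. None was at its start site, and the first lay 26722 bp into the gene. The 2 longest, of 10512 bp (chr4:47301879-47312390, fold 3.42) and 8461 bp (chr4:47312728-47321188, fold 3.05), were at its 3′ end. The gene ends at chr4:47313167, so most of the 8461 bp peak lay beyond it. Its only CM peak was 313 bp long (chr4:47303606-47303918, fold 4.11), 95594 bp from the start site and inside the 10512 bp peak. Col18a1 had 2 romidepsin peaks over 0.803% of its window, with folds of 2.49 at a start site and 2.17 inside. Of the 2 remaining collagens, Col26a1 had 1 romidepsin peak (fold 2.38) and Col28a1 had none.

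Col27a1, the fibrillar gene with a CM peak, encodes a cartilage collagen. Its CM peak lay at the start site (chr4:63215306-63215892, 587 bp, fold 5.12, −log10 q 4.14), inside the first of 5 romidepsin peaks (chr4:63213570-63216707, 3138 bp, fold 3.38). The other 4 were 91856 to 102798 bp from the start site, with folds from 2.58 to 2.87. Col27a1 and Col23a1 were thus the only genes of the set with a start site in the table and a CM peak there.

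**Figure D4:**
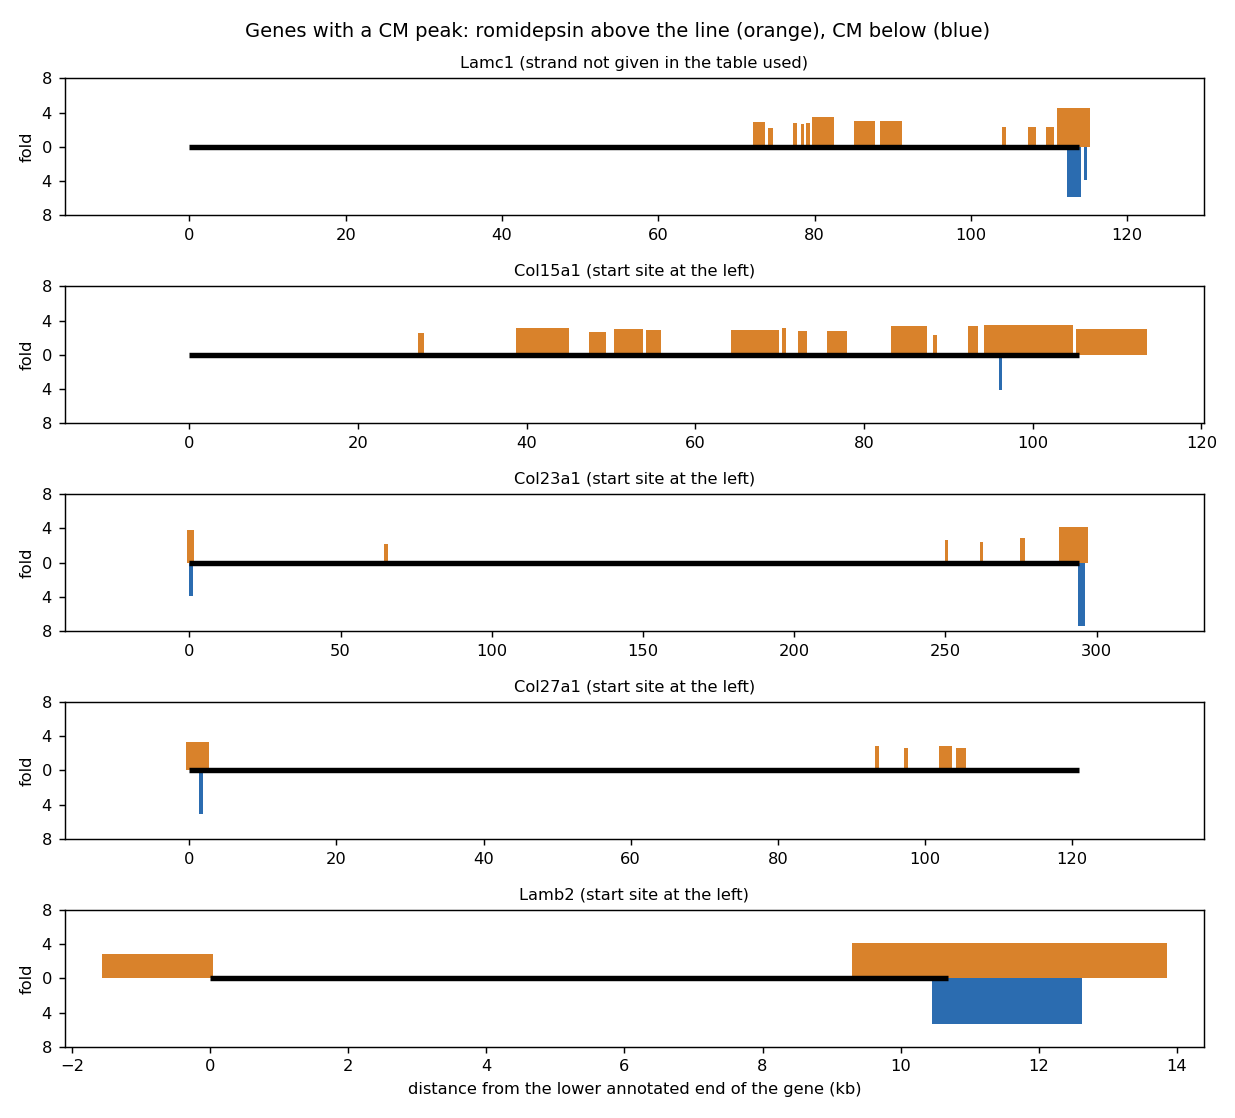
The 5 genes with a CM peak, each drawn along its span (x axis, kb from the lower annotated end), with the fold of each peak on the y axis. Romidepsin peaks (orange) point up and CM peaks (blue) down, and the black line is the gene. Each of the 7 CM peaks sits under a longer romidepsin peak, and Col15a1 has 14 romidepsin peaks but none at its start.

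Laminin alpha chains carry most of the receptor-binding part of the trimer. Of their 5 genes 0 had a CM peak and 3 a romidepsin peak. Lama5, the most widespread alpha chain of adult basement membranes, had 2. The first covered its start site (chr2:180224777-180226427, 1651 bp, fold 3.92, −log10 q 6.02), the highest fold among peaks at a start site in the table used, and the second lay upstream (chr2:180226729-180228291, fold 3.18). The nearest CM peak was 3.57 kb from Lama5. Lama3, part of the epidermal laminin, had 3 romidepsin peaks over 1.20% of its window, the strongest at its lower annotated end (2047 bp, fold 3.20). Lama2, the muscle laminin chain and the longest of all 55 genes at 636 kb, had 3 peaks over 0.500% of its window. All 3 were 445073 bp or more from the start site, with folds of 2.86, 2.35 and 2.22. Lama1 and Lama4 had none, with the nearest romidepsin peak 173 kb and 23.2 kb away.

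Of the 3 beta chains, Lamb2 had 1 CM peak and 2 romidepsin peaks. The CM peak lay at its 3′ end (chr9:108490302-108492467, 2166 bp, fold 5.38, −log10 q 5.22) and also reached the window of Usp19, a deubiquitinase gene. The romidepsin peaks were at its start site (chr9:108478278-108479893, 1616 bp, fold 2.88) and at its 3′ end (chr9:108489145-108493703, 4559 bp, fold 4.11), and they covered 27.1% of its window. Lamb3, the beta chain of epidermal laminin, had 1 romidepsin peak of 1265 bp, 26785 bp from the start site (fold 2.70). Lamb1 had none, with the nearest 16.5 kb away.

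Lamc1 encodes the gamma chain that sits in most laminins. Its 2 CM peaks lay at the upper annotated end (chr1:153331185-153332944, 1760 bp, fold 5.90, −log10 q 5.59) and just beyond it (chr1:153333338-153333640, 303 bp, fold 3.92, −log10 q 2.00). Both were inside the strongest romidepsin peak of the 55 genes (chr1:153329914-153334141, 4228 bp, fold 4.52, −log10 q 8.44). In all, 12 romidepsin peaks covered 15.5% of the Lamc1 window. Lamc3, another gamma chain, had no peak in either list.

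Start sites were read for the 40 genes that have one in the RefSeq promoter table. A CM peak lay within 1 kb of a start site in 2 of 40 genes, or 5% (95% interval 0.611 to 16.9%), against 51.4% of all genes with a start site. A romidepsin peak did so in 13 of 40, or 32.5% (95% interval 18.6 to 49.1%), against 63.1%. The 13 were Col4a1 and Col4a2 (both by the same peak), Col5a1, Col8a2, Col9a2, Col11a2, Col13a1, Col18a1, Col23a1, Col25a1, Col27a1, Lama5 and Lamb2. With a fold of at least 3 they fell to 5, and with a −log10 q of at least 5 to 2.

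The start sites with a romidepsin peak were mostly rich in CpG, as they were over all genes. Of the 13478 promoter windows of all genes with a romidepsin peak, 9156 had an observed over expected CpG ratio of at least 0.6. The 40 genes have 44 promoter windows of 300 bases (250 before to 50 after the start site), and 13 of them had an observed over expected CpG ratio of at least 0.6. Of these 13, 10 had a romidepsin peak within 1 kb (76.9%), against 90.3% of all CpG-rich promoters, and 2 had a CM peak (15.4%), against 81.7%. Of the 31 poorer windows, 3 had a romidepsin peak (9.68%), against 38.8%, and 0 a CM peak, against 22.1%. Where no CM peak was present, 8 of 11 CpG-rich windows had a romidepsin peak, against 47.3% of all such promoters, and 3 of 31 poorer ones did, against 21.6%. The windows of Col4a1 and Col4a2 overlap and share 1 peak, but both count among the 8 and the 10. Col13a1 also counts in both, by a peak 994 bp from its start site that 500 bp in place of 1 kb would leave out. No interval was computed for these promoter counts. The median ratio was 0.70 in windows with a romidepsin peak and 0.33 in those without, and over all genes it was 0.74 and 0.21. The 3 poorer windows with a peak belong to Lamb2 (0.28), Col9a2 (0.35) and Col18a1 (0.54), and the 3 CpG-rich ones without a peak to Col19a1 (0.67), Col5a3 (0.66) and Lamb1 (0.62).

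**Figure D5:**
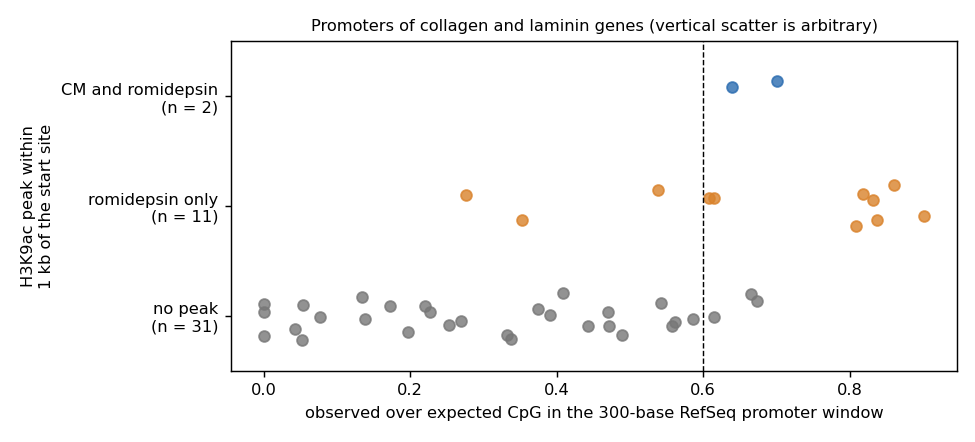
Observed over expected CpG ratio (x axis) of the 44 promoter windows of collagen and laminin genes, in rows by the H3K9ac peaks within 1 kb of the start site. The dashed line is a ratio of 0.6, and the vertical scatter within a row is arbitrary. Both windows with a CM peak and 8 of 11 with a romidepsin peak alone lie right of the line, and 28 of 31 without a peak lie left of it.

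Upstream sequences of 8 genes show how far the promoters vary in CpG with and without a peak. They were chosen as examples from 22 such stretches. Of the 22, the 7 with a romidepsin peak at the start site held 3 to 25 CpG (median 12) and the 15 without held 0 to 21 (median 3), so the ranges overlap. Each runs up to the outermost annotated end of the gene, is written 5′ to 3′ on the strand of the gene from RefSeq GRCm38.p6, and has CpG dinucleotides in capitals. The first 4 have a romidepsin peak at the start site. Col5a1 and Col8a2 are dense in CpG (25 and 24 in the stretch shown), Lama5 has 13, and Lamb2 has 3.
Col5a1, chr2:27886175-27886380, plus strand: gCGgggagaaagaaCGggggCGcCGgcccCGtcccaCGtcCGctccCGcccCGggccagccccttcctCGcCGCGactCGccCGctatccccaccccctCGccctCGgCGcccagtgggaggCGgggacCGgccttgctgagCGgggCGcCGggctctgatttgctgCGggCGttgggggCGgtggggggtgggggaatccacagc
Col8a2, chr4:126286544-126286793, plus strand: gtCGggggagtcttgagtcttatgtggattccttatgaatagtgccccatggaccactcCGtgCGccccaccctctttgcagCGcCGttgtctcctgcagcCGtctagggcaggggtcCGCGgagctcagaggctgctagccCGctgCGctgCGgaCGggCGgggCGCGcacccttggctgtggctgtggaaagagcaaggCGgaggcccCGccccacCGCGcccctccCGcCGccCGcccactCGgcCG
Lama5, chr2:180225905-180226109, minus strand: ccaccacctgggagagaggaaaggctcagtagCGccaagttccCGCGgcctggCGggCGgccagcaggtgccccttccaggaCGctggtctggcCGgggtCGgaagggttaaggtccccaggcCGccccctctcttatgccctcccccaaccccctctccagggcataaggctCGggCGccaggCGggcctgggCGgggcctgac
Lamb2, chr9:108479612-108479846, plus strand: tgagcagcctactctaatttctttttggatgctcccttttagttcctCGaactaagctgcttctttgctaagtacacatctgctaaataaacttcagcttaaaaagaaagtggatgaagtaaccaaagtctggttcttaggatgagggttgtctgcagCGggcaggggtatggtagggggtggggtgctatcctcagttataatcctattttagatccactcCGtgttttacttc
The other 4 have no peak at the start site. Col16a1 has 21 CpG in its stretch, more than Lama5, while Col3a1 has 0, Col4a6 has 1 and Col4a5 has 6. With 2.5 kb in place of 1 kb either side of the start site, Col16a1 would count as having a romidepsin peak. Col4a6 and Col4a5 face each other on chromosome X, and their 300-base promoter windows hold 3 and 11 CpG, against 37 and 33 in those of Col4a1 and Col4a2 on chromosome 8.
Col16a1, chr4:130047590-130047816, plus strand: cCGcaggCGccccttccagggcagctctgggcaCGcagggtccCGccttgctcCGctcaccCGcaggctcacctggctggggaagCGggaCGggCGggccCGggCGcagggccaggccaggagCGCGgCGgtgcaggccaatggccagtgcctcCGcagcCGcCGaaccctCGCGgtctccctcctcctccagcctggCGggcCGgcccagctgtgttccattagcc
Col3a1, chr1:45311288-45311537, plus strand: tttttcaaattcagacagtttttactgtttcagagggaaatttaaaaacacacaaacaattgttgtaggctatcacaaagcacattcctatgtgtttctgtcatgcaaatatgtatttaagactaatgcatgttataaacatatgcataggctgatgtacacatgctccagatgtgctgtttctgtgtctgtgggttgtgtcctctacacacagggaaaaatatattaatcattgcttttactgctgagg
Col4a6, chrX:141474096-141474326, minus strand: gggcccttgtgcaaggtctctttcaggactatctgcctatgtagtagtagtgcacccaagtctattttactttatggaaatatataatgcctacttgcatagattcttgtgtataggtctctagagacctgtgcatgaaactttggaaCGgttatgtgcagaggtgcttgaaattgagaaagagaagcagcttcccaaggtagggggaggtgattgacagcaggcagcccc
Col4a5, chrX:141475169-141475369, plus strand: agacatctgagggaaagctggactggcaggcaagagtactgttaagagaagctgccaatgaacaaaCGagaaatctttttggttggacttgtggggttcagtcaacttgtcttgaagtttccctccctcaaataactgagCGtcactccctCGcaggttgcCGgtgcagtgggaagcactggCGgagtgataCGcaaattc

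The windows were also searched for common promoter motifs. A CCAAT box was found in 14 of 44 windows (31.8%, all promoters 38.2%), a GC box in 26 (59.1%, all promoters 46.2%) and a TATA box (TATAAA, both strands) in 5 (11.4%, all promoters 12.6%). A GC box was in 11 of 13 windows with a romidepsin peak (84.6%) and 62.0% of such windows over all genes. The overlapping windows of Col4a1 and Col4a2 both count among the 11. Without a romidepsin peak it was in 15 of 31 windows (48.4%) and 18.8% of such windows over all genes.

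The genes that process and bind these proteins were examined beside them, with the shares of all protein-coding genes (CM 53.6%, romidepsin 68.3%) for comparison. Collagen synthesis and secretion genes, which act mostly inside the producing cell, were found in the table for 22 of 23 names. Of these, 13 had a CM peak and 19 a romidepsin peak, led by P4hb (fold 4.52), a subunit of prolyl 4-hydroxylase, Crtap (fold 4.38), part of a complex that modifies prolines, and Pcolce (fold 4.19), which enhances propeptide cleavage and had no CM peak. The 3 without any peak were Adamts2, P4ha3 and Pcolce2. Cross-linking enzymes had a CM peak in 2 of 7 (Loxl3 and Tgm2) and a romidepsin peak in 4, with Loxl2 (9 peaks, fold 3.08) and Lox (1 peak, fold 2.99) added, and Loxl1, Loxl4 and Pxdn had none.

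Receptors let cells bind these proteins. Of 11 collagen receptors 4 had a CM peak, Itgb1, Itga1, Itga2 and the leukocyte receptor Lair1, and 9 a romidepsin peak. The 5 with a romidepsin peak alone included Mrc1, the macrophage mannose receptor, with 16 peaks over 23.4% of its window, besides Mrc2, Gp6, Itga10 and Ddr1, and Ddr2 and Itga11 had none. All 8 laminin receptors had a romidepsin peak and 5 a CM peak (Cd151, Itga6, Itgb4, Rpsa and Dag1), while Itga3, Itga7 and Bcam had a romidepsin peak alone.

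Other proteins of the matrix were examined as well. Of 12 other basement membrane genes 3 had a CM peak (Ntn4, Agrn and Nid2) and 6 a romidepsin peak, with Frem1, Sparc and Hspg2 added. Of 14 fibrillar matrix partners 3 had a CM peak (Vcan, Thbs1 and Fn1) and 6 a romidepsin peak, with Comp (fold 4.08), Postn and Fmod added. The remaining 8, among them Fbn1, Eln and Dcn, had no peak in either list.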

How the data were processed

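H3K9ac ChIP-seq peaks of 2 libraries, 1 per condition, were used. Per the submitters' processing notes, the authors used Bowtie2 2.4.4, MACS2 2.2.7.1 and deepTools 3.5.1 with mm10. Settings, read filters and the use of input as a control: not given in the sources used here. For every library the deposited list holds the authors' broad peaks with a score (not used here), a fold enrichment (a ratio) and −log10 p and q values.

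A peak counted for a gene when at least 1 bp lay in its RefSeq GRCm38.p6 span plus 1 kb (coordinates are 1-based). Start sites came from the RefSeq promoter table, which held 40 of the 55 genes. For the other 15 the annotated ends were used. Calculations used Python 3.11.15, numpy 2.4.6, pandas 2.3.3 and scipy 1.17.1, and overlaps were checked on simulated data. Genes were named as follows: every collagen and laminin gene except 1 that is not reported here, and of each partner group at most 3 genes by highest romidepsin fold plus those making up small counts. The CpG classes, the members and the gene lists were chosen with earlier results of these data known. Alternatives to the peak threshold, overlap, merging and window are given at the end.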

Additional observations from a re-analysis of the deposited data

How the results depend on the processing

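Each condition had 1 library, so no replicate was left out, and read depth is unknown. No paired analysis was possible because each condition had 1 library and no result comes from a test. Stricter thresholds keep fewer peaks by construction.

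Genes with a CM peak numbered 3 at a −log10 q of at least 5, with Col15a1 and Col27a1 lost, and 8 with 5 kb of flank, with Col4a2, Col4a3 and Lama5 added. At that threshold of 5 CM peaks numbered 3, and 0 genes had one at the start site. For genes with a romidepsin peak, those without a CM peak, and those with one at the start site, a −log10 q threshold of 5 gave 7, 4 and 2. The counts were 14, 9 and 5 at a fold of at least 3, and 9, 4 and 3 with as many romidepsin as CM peaks (−log10 q of at least 4.34). The 7 genes were Col1a1, Col4a1, Col4a2, Col23a1, Lama5, Lamb2 and Lamc1. Romidepsin peaks numbered 10 at a −log10 q threshold of 5 and 13 with equal numbers. The covered share of 2.46% became 2.12% at a −log10 q threshold of 2, 0.404% at 5, 1.19% at a fold of at least 3, 0.635% with equal numbers, 2.73% with peaks closer than 1 kb merged, 2.30% without flank and 2.80% with 5 kb of flank. The other alternatives left each count within 1.5 times its value.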
